A study of Macaca fascicularis with 11 samples.

Results

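Chromosome 11 of the Cynomolgus macaque held 3784 of the 61399 listed cytosines, at 3602 different CpGs, and all 3784, on both strands, are described here. The chromosome was chosen by measured values: among the numbered chromosomes other than 10 it had the highest mean methylation and the highest share of cytosines on the plus strand. Level, level classes and strand share are therefore given as a description without a test. The comparison is with the 18 other numbered chromosomes except 10, which held 42613 cytosines, and these are meant below by the others. Chromosome 10 is left out of every comparison and rank, and it showed the traits that chose chromosome 11 more strongly, with a mean of 63.7%, 66.9% of its cytosines on the plus strand, and 4924 high against 1972 low cytosines (above 70% and below 30%). None of these traits is thus particular to chromosome 11. The data are methylation ratios from skeletal muscle biopsies of 11 adult male Cynomolgus macaques, which form 1 group with no treatment compared. Restriction fragments of the DNA were treated with bisulfite and sequenced (reduced representation bisulfite sequencing, RRBS), so that unmethylated cytosines read as thymine. A ratio runs from 0 to 1 and is given below in percent. Read counts were not used here, so the depth of a ratio is unknown apart from the minimum of 10 reads given in the methods of the paper, and no counting interval is given.

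In mammals, DNA methylation lies mostly on the cytosines of CpG dinucleotides, which pair with a second CpG on the opposite strand. Most of the genome is methylated, whereas CpG islands, often found at promoters, are kept unmethylated. RRBS reads inwards from the ends of restriction fragments and so samples CpG-dense DNA, and the cytosines read from a given fragment end belong to the same strand.

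In the whole list, 4 animals (2606, 2646, 5296 and 5272) stood apart. At cytosines with a mean below 10% in the remaining 10 animals they had 4.51% to 5.35%, against 2.75% to 2.95% in the other 7. Over the other chromosomes their means were 33.7% to 34.3%, against 32.5% to 33.0%, and on chromosome 11 52.1% to 52.5%, against 51.6% to 51.9%. Values without these 4 animals are given beside the tested differences.

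The methylation of chromosome 11 lay far above that of the other chromosomes in every animal. Its mean over cytosines was 52.0% ± 0.318 (SD, n = 11 animals), with 51.6% in the lowest animal, 51.9% in the median animal and 52.5% in the highest. Over the pooled cytosines of the other chromosomes the mean was 33.3% ± 0.716 (SD, n = 11), from 32.5% in the lowest animal through 33.0% to 34.3% in the highest. The 2 sets of animal values did not overlap, and chromosome 11 was higher in 11 of 11 animals, by 18.7 ± 0.460 percentage points (SD). The level chose the chromosome, so this is only a description. Ranges apart from the pooled one also occurred elsewhere, such as 23.4% to 25.8% on chromosome 6 and 36.0% to 37.9% on chromosome 3. Among the other chromosomes the highest mean was 40.3%, on chromosome 18. The SD of the animal means was 0.318 points on chromosome 11, against 0.602 or more on each of the others and 0.347 on chromosome 10. The 4 animals that stood apart move with this SD, since their mean exceeded that of the other 7 by 0.570 points on chromosome 11 and by 1.36 points over the pooled others. Among the 7 alone the SD was 0.117 points, no longer the lowest, with 0.0902 on chromosome 1. The part of these 4 animals in the SD was otherwise not tested. With ratios of exactly 0 or 1 left out, the SD on chromosome 11 rose to 2.40 points over the 11 animals.

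**Figure D1:**
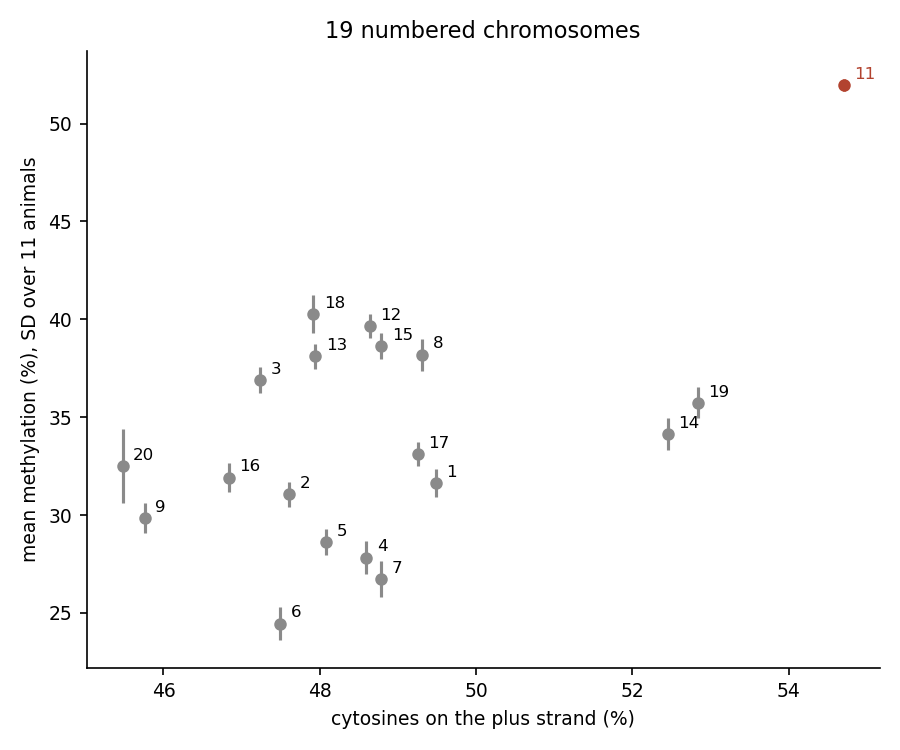
Mean methylation (%, points with SD over 11 animals) against the share of cytosines on the plus strand (%) for the 19 numbered chromosomes other than 10, each point labelled with its chromosome number. Chromosome 11 stands apart at 52.0% methylation and 54.7% plus-strand cytosines.

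Described by class, chromosome 11 differed from the others in how many cytosines fell into each class. The classes are cuts of the same ratios that chose the chromosome, which confines the level within a class. The split is therefore only a description. Cytosines with a ratio below 0.3 (low) made up 39.5% ± 0.562 (SD, n = 11) of chromosome 11, against 61.3% ± 0.591 on the others. Cytosines above 0.7 (high) made up 46.9% ± 0.341, against 26.1% ± 0.216, and intermediate ones, from 0.3 to 0.7, made up 13.6% ± 0.792, against 12.6% ± 0.610. Of the 19 chromosomes compared only chromosome 11 had more high than low cytosines, a trait it shares with the left-out chromosome 10. Classed by the mean over the animals, it held 1485 low, 506 intermediate and 1793 high cytosines. The mean level within a class was close to that elsewhere, at 6.42% against 5.85% for low, 52.0% against 49.8% for intermediate and 89.7% against 89.9% for high cytosines. With the class shares of chromosome 11, the class levels of the other chromosomes would give a mean of 51.6%, which restates these shares and is no separate result.

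Per Mb of listed span, chromosome 11 had 10.9 low cytosines, against 10.4 on the pooled others and 5.18 to 35.4 on single ones. It had 3.71 intermediate cytosines per Mb, against 2.18 on the pooled others, and 13.1 high ones, against 4.41. This density of high cytosines was exceeded by chromosome 19, with 17.2 high and 35.4 low cytosines per Mb, and by chromosome 10, with 51.0 high cytosines per Mb. A ratio of exactly 0 was listed for 15.4% of the cytosines of chromosome 11 in the median animal (lowest 8.72%, highest 20.8%), against 26.4% (lowest 14.6%, highest 32.9%) on the others. The ranges overlapped, but the share was lower on chromosome 11 in every animal. The 4 animals that stood apart had the 4 lowest values on both. A ratio of exactly 1 was listed for 7.66% (lowest 6.16%, highest 11.4%), against 6.08% (lowest 5.08%, highest 8.37%). This share was higher on chromosome 11 in every animal, though the ranges overlapped.

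The high methylation was spread along the whole chromosome. Listed cytosines occurred in 127 of its 1-Mb blocks, with a median of 25 per block, and 76 blocks held 20 cytosines or more. Of these 76, 65 had a mean above the 33.3% of the other chromosomes, 13 were above 70%, and 8 were below 30%. The median over the 76 blocks was 53.1%. In the 51 blocks with fewer cytosines the median was higher, at 74.0%, and 27 of them were above 70%. Some of these sparse blocks were low, however, such as those from 110 to 111 Mb with 0.918% and from 69 to 70 Mb with 5.96%. In steps of 10 Mb, 14 of 14 segments had a mean above that of the other chromosomes, from 41.7% between 110 and 120 Mb to 66.5% between 10 and 20 Mb. These counts describe a chromosome chosen for its level. Matching counts for blocks and segments of the other chromosomes are not given, so how common such levels are there is not shown.

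The named blocks show the ends of the range among blocks of 20 cytosines or more, with positions in the genome of Yan et al. that the authors used. The 5 highest were those from 68 to 69 Mb with 88.2% ± 1.45 (SD, n = 11), 76 to 77 Mb with 88.1% ± 1.48, 19 to 20 Mb with 83.5% ± 1.06, 56 to 57 Mb with 82.8% ± 1.51 and 131 to 132 Mb with 82.1% ± 2.44. In the highest block, 40 of 41 cytosines were in the high class. The 5 lowest were those from 120 to 121 Mb with 11.8% ± 0.959, 73 to 74 Mb with 15.7% ± 2.43, 116 to 117 Mb with 15.8% ± 1.30, 85 to 86 Mb with 18.0% ± 3.46 and 111 to 112 Mb with 22.9% ± 0.877. The lowest block had 36 low cytosines of 40. These 5 highest blocks were scattered from 19 to 132 Mb, whereas these 5 lowest lay between 73 and 121 Mb. Blocks with fewer cytosines went beyond them, such as 82 to 83 Mb with 97.4% and 22 to 23 Mb with 13.8%. The positions of the named blocks thus depend on the cut of 20 cytosines.

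**Figure D2:**
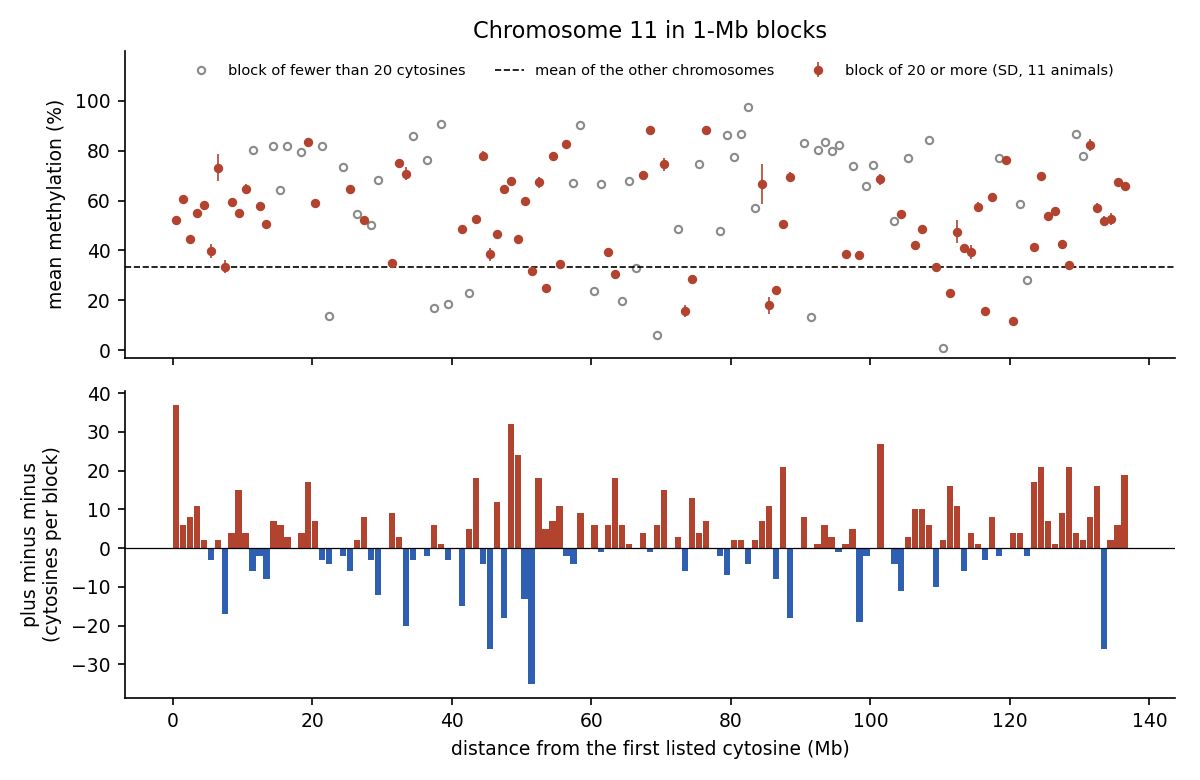
Chromosome 11 in 1-Mb blocks bounded by chromosome position, each plotted at the distance of its centre from the first listed cytosine (Mb). The upper panel gives the mean methylation (%) with SD over 11 animals for blocks of 20 or more cytosines, open circles for smaller blocks, and a dashed line at the 33.3% of the other chromosomes. The lower panel gives the number of plus-strand minus minus-strand cytosines per block, with 81 blocks above and 42 below 0.

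The excess of plus-strand cytosines was spread less evenly. Of the 3784 cytosines, 2070 (54.7%) lay on the plus strand, against 48.7% on the pooled other chromosomes and at most 52.8% on any of them, chromosome 19. The share was above 50% in 11 of the 14 segments of 10 Mb, while those from 20, 30 and 50 Mb had 45.4%, 47.3% and 49.4%. More plus than minus cytosines were listed in 81 blocks, fewer in 42, and equal numbers in 4. Plus-leaning blocks thus made up 65.9% of the unequal ones, against 34.8% to 59.3% on the other chromosomes and 83.9% on the left-out chromosome 10. On chromosome 11 the excess was 700 cytosines summed over the plus-leaning blocks, of which the 5 blocks with the largest excess held 141. The minus-leaning blocks had an opposite excess of 344, which leaves a net excess of 356.

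Those 5 blocks were from 0 to 1 Mb with 63 plus and 26 minus cytosines, 48 to 49 Mb with 47 and 15, 101 to 102 Mb with 28 and 1, 49 to 50 Mb with 53 and 29, and 87 to 88 Mb with 47 and 26. The last tied with the blocks from 124 Mb, with 39 and 18, and from 128 Mb, with 33 and 12, and was taken for its lower position. The largest leans to the minus strand were from 51 to 52 Mb, with 50 plus and 85 minus cytosines, 45 to 46 Mb with 18 and 44, and 133 to 134 Mb with 7 and 33. Blocks only a few Mb apart could lean to opposite strands, as did those from 49 and from 51 Mb.

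The lean to the plus strand was largest among the high cytosines. Of the high cytosines, 60.9% were on the plus strand, against 50.7% on the pooled others and at most 59.9% on any of them, chromosome 12. The left-out chromosome 10 had a higher share, 73.0%. Of the intermediate cytosines 55.7% were on the plus strand and of the low cytosines 46.9%, both within the range of the other chromosomes, 40.9% to 56.1% and 40.8% to 53.1%. Counted over all blocks, plus exceeded minus by 391 among the high and by 58 among the intermediate cytosines, whereas the low cytosines gave -93. High cytosines leaned to the plus strand in 83 blocks and to the minus strand in 37. Low cytosines did so in 42 and 52 blocks. For high cytosines the plus-leaning blocks were 69.2% of the unequal ones, against 35.9% to 66.2% on the other chromosomes, with the highest on chromosome 12. For low cytosines they were 44.7%, within the 39.1% to 57.6% of the others.

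Cytosines of the plus strand were more methylated than those of the minus strand. The mean of the plus-strand cytosines was 56.7% ± 0.230 (SD, n = 11), with 56.4%, 56.6% and 57.1% in the lowest, median and highest animal. That of the minus-strand cytosines was 46.3% ± 0.481, with 45.7%, 46.1% and 47.0%. The strands did not overlap over the animals, and the gap was 10.4 ± 0.363 points, compared with 2.05 ± 0.0883 points on the pooled other chromosomes. The gap was wider on chromosome 10, with 13.9 points, and on chromosome 12, with 12.8 points, its plus-strand cytosines having 46.2% and its minus-strand ones 33.4%. These are different CpGs on the 2 strands for the most part. At the 182 CpGs listed on both strands the means were 65.1% and 64.0%.

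Neighbouring cytosines were joined into runs, a new run starting where the gap was over 1000 bp. Chromosome 11 had 901 runs with a median of 4 and at most 29 cytosines. Runs of a single cytosine made up 12.5%, less than the 13.5% to 19.8% of the other chromosomes, and runs of 10 or more made up 6.44%, against 8.19% over the pooled others. The median run spanned 37 bp, longer than the 25 to 31 bp of the other chromosomes but shorter than the 59 bp of the left-out chromosome 10. Most runs lay on a single strand, with 460 runs of the plus strand, 350 of the minus strand and 91 that held both.

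High runs, those with a mean above 0.7, numbered 455, or 50.5% of the runs against 27.3% elsewhere, and low runs 283, or 31.4% against 55.7%. Of the high runs, 264 were on the plus strand, 151 on the minus strand and 40 on both. Over the other 18 chromosomes together the same counts were 1106, 1141 and 376, and on the left-out chromosome 10 they were 725, 207 and 154. Low runs were divided as elsewhere, with 114 plus-strand and 134 minus-strand runs, against 2185 and 2469. The plus-strand share of high runs on a single strand was 64.4% for runs of 1 cytosine (29 plus and 16 minus), 63.5% for 2 to 4 and 63.6% for 5 to 9. No such run held 10 or more cytosines, and a dependence on size was not tested. The mean was 47.3% over cytosines alone in their run, 60.1% in runs of 2 to 4, 52.9% in runs of 5 to 9 and 35.0% in runs of 10 or more. The pooled others had 35.7%, 40.2%, 32.0% and 26.6%. On both, runs of 2 to 4 were the highest and runs of 10 or more the lowest. Cytosines alone in their run lay below runs of 5 to 9 on chromosome 11 and above them on the others. Of the runs of 10 or more 58.6% were low, against 71.1% on the others.

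The 5 runs with the most cytosines were mostly low or mixed. The largest, from 73272225 to 73272623, held 29 cytosines with a mean of 13.05% ± 2.55 (SD, n = 11; lowest animal 8.73%, median 12.9%, highest 17.1%). The run from 86768987 to 86769259 held 22 cytosines, all on the minus strand, at 3.12% ± 1.52, and no animal exceeded 5.29%. Its highest values, from 4.22% to 5.29%, were those of the 4 animals that stood apart, against at most 2.98% in the other 7. The run from 112537588 to 112537639 held 20 cytosines in 52 bp at 16.5% ± 8.27, and here the animals ranged from 4.10% to 29.8% around a median of 16.2%. The run from 45795191 to 45795420, with 19 cytosines of the minus strand, had 25.1% ± 7.78 and ranged from 12.7% through 23.6% to 37.5%. The last, from 48050373 to 48051049, also had 19 cytosines, at 37.3% ± 1.498. Its cytosines ranged from 1.28% to 100%, so the intermediate mean joins unmethylated and fully methylated positions and hardly differed between animals. Dense runs therefore included stable unmethylated, stable mixed and variable ones.

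Some of the high runs had a recurrent spacing of their cytosines, which was not used to choose the chromosome. Chromosome 11 had 203 high runs of at least 4 cytosines on a single strand. Read in the 5′ to 3′ direction of their strand, 11 of them had cytosines at exactly 0, 4, 12, 16 and 60 bp from the first. A further 11 had the same spacing without the position at 12 bp, and no other spacing was more frequent among the 155 found. The spacing was chosen after the values were seen and on this chromosome, so its counts are a description. Clusters of same-strand cytosines at most 100 bp apart were then searched on the 19 chromosomes compared for a placement that matched at least 4 of the 5 positions. Clusters on the left-out chromosome 10 were not counted, so the spacing cannot be called particular to chromosome 11.

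Chromosome 11 had 92 such clusters, and the 18 others together had 200, from 1 on chromosome 4 to 27 on chromosome 13. Per Mb this is 0.675 against 0.0797. Of the 92 clusters, 65 (70.7%) were on the plus strand, against 112 of 200 (56.0%) elsewhere. The share was higher on 4 of the other chromosomes, among them chromosome 12 with 16 of 22 (72.7%). They occurred in each of the 14 segments of 10 Mb, with 2 to 19 clusters in each, and in 62 different 1-Mb blocks, with at most 5 in a block. Plus-strand clusters were the more numerous in 12 segments and minus-strand clusters in 2. The spacing was thus dispersed along the chromosome.

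These clusters were highly methylated in every animal. Their 461 cytosines had a mean of 82.4% ± 0.591 (SD, n = 11), with 81.1%, 82.5% and 83.4% in the lowest, median and highest animal, against 66.2% ± 1.44 for the pooled clusters elsewhere. On single other chromosomes the mean ran from 34.7% on chromosome 20 to 94.3% on chromosome 6, and it was above that of chromosome 11 on 5. The spacing was taken from runs already picked as high on chromosome 11, so a high level there is in part set by that choice, and the contrast is only a description. The clusters held 21.3% of the high cytosines of chromosome 11, against 6.84% on the others. Methylation followed the position, with 93.6% ± 0.490 at 0 bp, 80.8% ± 1.48 at 4 bp, 78.3% ± 0.881 at 12 bp, 84.9% ± 0.915 at 16 bp and 89.2% ± 1.53 at 60 bp. Plus-strand and minus-strand clusters were both highest at 0 bp, with 93.1% and 94.7%, and lowest at 12 bp, with 77.7% and 79.5%. The minus-strand clusters were the higher at every position, a difference that was not tested. The elsewhere-listed clusters were highest at 0 bp as well, with 85.0% ± 0.307. They were lowest at 12 bp, with 74.4% ± 0.754, but close to this at 4 bp, with 74.7% ± 0.478. On their minus strand 4 bp was the lowest, with 70.8% against 71.0% at 12 bp.

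**Figure D3:**
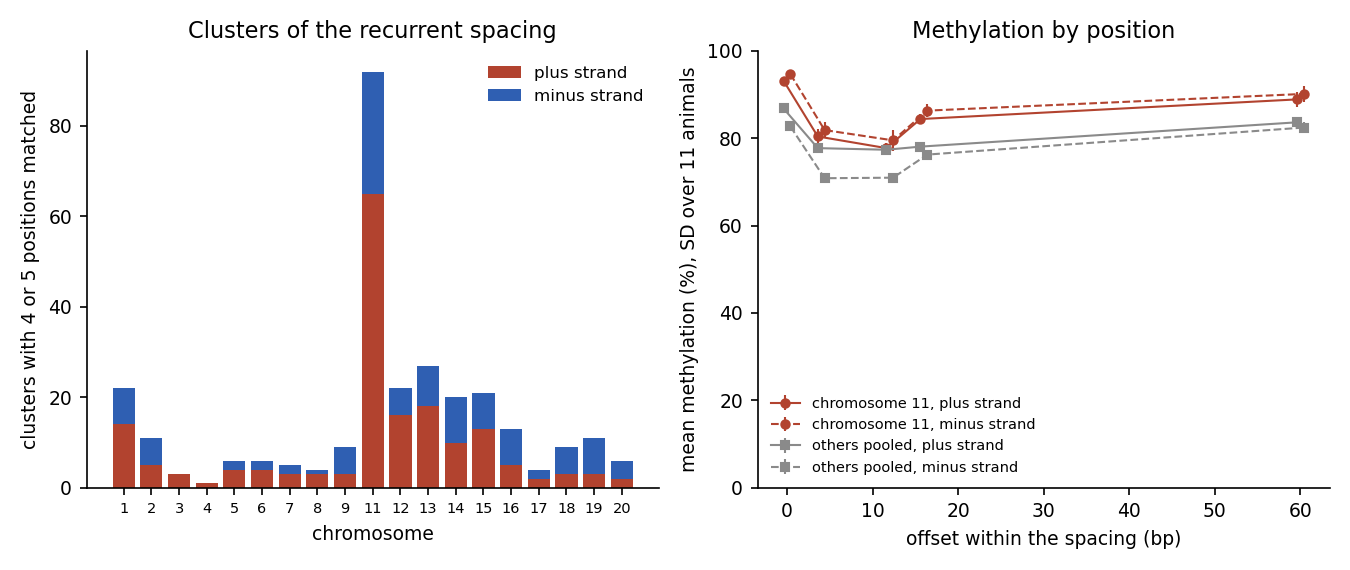
Left, number of same-strand clusters that match 4 or 5 positions of the recurrent spacing on each of 19 chromosomes, stacked by strand. Right, mean methylation (%, SD over 11 animals) at the 5 offsets (bp) for chromosome 11 and the pooled others by strand. Chromosome 11 has 92 clusters, 65 of them on the plus strand, and its methylation is highest at 0 bp.

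A run that starts at 0 bp and ends at 60 bp of the spacing is 61 bp long, so run length is no separate finding. Of the high plus-strand runs with 2 or more cytosines, 23.4% (55 of 235) spanned exactly 61 bp, and of the minus-strand ones 14.1% (19 of 135). On the other chromosomes these shares were 8.23% and 7.07%.

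With a looser match of 3 of the 5 positions, 265 clusters with 1288 cytosines were found on chromosome 11, 34.0% of its cytosines, against 16.3% elsewhere. Such a match can also arise where cytosines are simply dense, and on the other chromosomes the loosely matched cytosines had a mean of only 40.1%. Without these loosely matched clusters, the mean of chromosome 11 was 43.7% ± 0.490 (SD, n = 11) and its plus-strand share 51.1%. Without only the clusters that matched 4 of the 5 positions, they were 47.8% ± 0.394 and 52.6%. The other chromosomes without their loosely matched clusters had 32.0% ± 0.745 and 48.2%. After the loose match the remaining mean was still above that of each of the 18 others, at most 38.6%, whereas 2 of them had a higher remaining plus-strand share. Of the remaining high cytosines of chromosome 11, 57.8% were on the plus strand, above the 56.7% at most elsewhere. What sequence carries the spacing was not tested, since no genome of this build was used.

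Methylated cytosines of chromosome 11 differed less between animals than those of the other chromosomes. The spread of an animal was taken as its average distance, in absolute value, to the mean of the remaining 10 at the cytosines of a class, with the class also set by those 10. At high cytosines it was 4.67 ± 0.394 points (SD, n = 11; lowest animal 4.13, median 4.57, highest 5.43) on chromosome 11 and 5.51 ± 0.324 (lowest 5.05, median 5.51, highest 5.91) on the others. The ranges overlapped, but chromosome 11 was lower in 11 of 11 animals, with a difference of -0.834 ± 0.169 points. In an exact two-sided sign-flip permutation test over the animals, p was 0.000977, the smallest that 11 animals can give, and 0.00506 after Benjamini-Hochberg adjustment over 57 tests, 3 classes on each of 19 chromosomes.

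Calls of this kind were common among the chromosomes. At high cytosines 13 of the 19 chromosomes (68.4%) differed from their others at an adjusted p below 0.05, in either direction. Chromosome 11 had the lowest difference of the 19. The spread by class was not compared for the left-out chromosome 10, so a low spread cannot be called particular to chromosome 11. Over cytosines of all classes, the SD over animals averaged 6.16 points on chromosome 11, within the 5.64 to 7.60 of the others. On chromosome 10 it averaged 5.58 points. The test treats animals as the replicates and the listed cytosines as given, and within a class the levels need not match. With the level held fixed in steps of 0.05, the difference at high cytosines was -0.948 ± 0.160 points (adjusted p = 0.00696, same exact test), again the lowest of 19, of which 12 (63.2%) were called. Without cytosines that had a ratio of exactly 0 or 1 in any animal, the difference was -1.65 points (adjusted p = 0.00557), and without the 4 animals that stood apart -0.842 points (adjusted p = 0.0445). Over the 19 alternatives run for this result, the adjusted p ranged from 0.00377 to 0.0445.

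At intermediate cytosines the spread was also smaller on chromosome 11. It was 10.2 ± 1.40 points (lowest animal 8.86, median 9.84, highest 13.6), against 11.5 ± 1.03 (lowest 10.2, median 11.8, highest 13.04) on the others. The ranges overlapped, and 1 of 11 animals was higher on chromosome 11. The difference was -1.26 ± 1.01 points (exact sign-flip test, p = 0.00391, adjusted p = 0.0117), the lowest of the 19 chromosomes, of which 3 (15.8%) were called. With the level held fixed it was -1.26 ± 1.03 points (adjusted p = 0.0232), and 3 of 19 (15.8%) were again called. Without the 4 animals that stood apart, it was -0.913 points with an adjusted p of 0.0954, the highest among the 19 alternatives, whose adjusted p began at 0.00795.

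At low cytosines no difference held. The spread was 4.26 ± 0.246 points (lowest animal 3.81, median 4.30, highest 4.67) on chromosome 11 and 4.10 ± 0.201 (lowest 3.66, median 4.13, highest 4.36) on the others, higher in 10 of 11 animals by 0.158 ± 0.160 points (exact test, p = 0.00879, adjusted p = 0.0239). Of the 19 chromosomes 9 (47.4%) were called. With the level held fixed the sign turned, to -0.0710 ± 0.187 points (adjusted p = 0.394), and 1 of 19 (5.26%) was called. Without the 4 animals it was 0.156 points (adjusted p = 0.119). The adjusted p over the 19 alternatives ran from 0.00377 to 0.656.

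**Figure D4:**
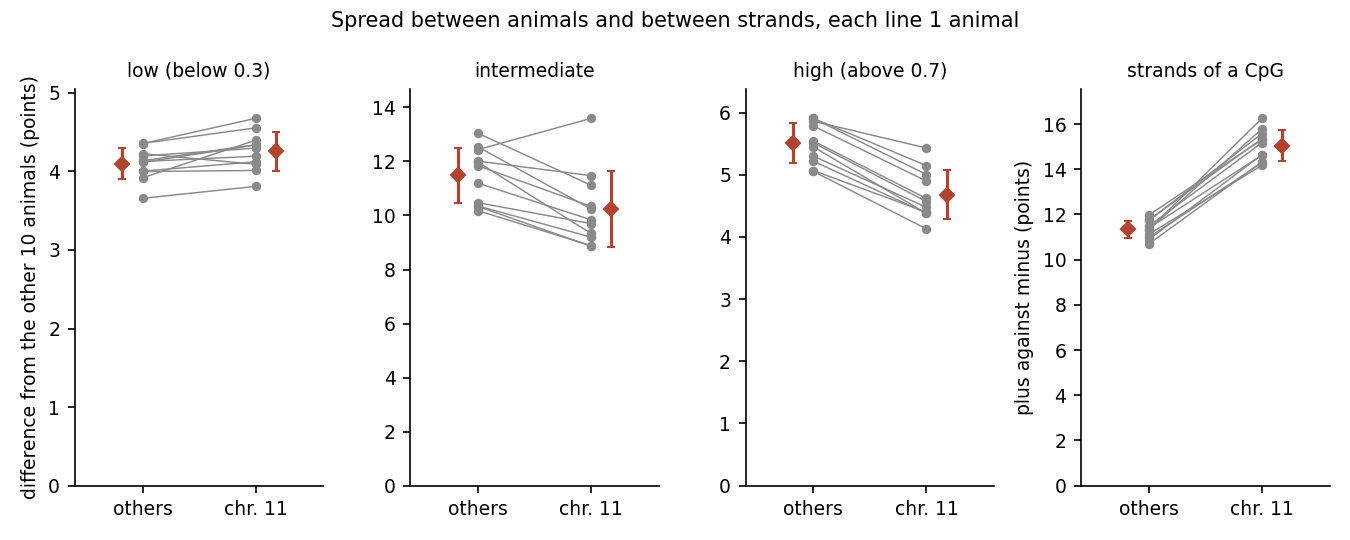
Average absolute distance of an animal to the mean of the remaining 10 (percentage points) at low, intermediate and high cytosines, and mean absolute difference between the strands of a CpG (percentage points), on chromosome 11 and the pooled others. Each grey line is 1 of 11 animals and diamonds give the mean with SD. At high cytosines chromosome 11 is lower in 11 of 11 animals, and its strand difference is higher in 11 of 11.

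The SD over animals of a high cytosine averaged 4.97 points in loosely matched clusters of chromosome 11 and 5.92 points outside them, against 5.79 and 6.58 points on the other chromosomes. In clusters that matched 4 of the 5 positions it was 5.19 points on chromosome 11 and 5.17 on the others, so it was not smaller there, and outside them 5.55 against 6.50. With the loosely matched clusters left out on all chromosomes, the tested difference at high cytosines was -0.629 points (adjusted p = 0.00557, exact sign-flip test), and with only the 4 of 5 matches left out -0.865 points (adjusted p = 0.00464). The part of read depth in these differences was not tested.

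The 2 strands of a CpG disagreed more on chromosome 11. At its 182 CpGs with both cytosines listed, the absolute difference between the strands was 15.0 ± 0.683 points per animal (SD, n = 11; lowest 14.2, median 15.2, highest 16.3), against 11.3 ± 0.393 (lowest 10.7, median 11.3, highest 11.97) at the 2446 CpGs of the other chromosomes. The animal values did not overlap, and the difference was 3.71 ± 0.553 points, higher in 11 of 11 animals (exact two-sided sign-flip test, p = 0.000977, adjusted p = 0.00143 over 19 chromosomes). It was the highest difference of the 19, but 18 of 19 chromosomes (94.7%) were called. The strand difference of a CpG recurs over the animals, so the test compares the listed sets of CpGs and not the chromosomes in general. Without CpGs that had a ratio of exactly 0 or 1 it fell to 1.93 points (adjusted p = 0.00232), and without the 4 animals that stood apart it was 3.44 points (adjusted p = 0.0198). With the mean of the CpG held fixed in steps of 0.1, a setting chosen after the data were seen, it was 2.83 ± 0.594 points (adjusted p = 0.00232), with 14 of 19 (73.7%) called.

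Neither strand was favoured at these CpGs. The strand means over animals differed by more than 20 points at 34 of the 182 CpGs (18.7%), against 13.2% elsewhere, and the plus strand was the higher at 19 and the minus strand at 15. The 3 largest differences were all of a methylated minus strand facing a less methylated plus strand. The CpG at 119367610 had 11.5% ± 7.90 (SD, n = 11; lowest 0%, median 10%, highest 30%) on the plus strand and 100% in every animal on the minus strand. The CpG at 56692638 had 7.30% ± 1.17 (lowest 5.31%, median 7.26%, highest 9.17%), against 93.6% ± 4.19 (lowest 87.5%, median 92.9%, highest 100%). The CpG at 117400418 had 37.7% ± 12.2 (lowest 15.4%, median 38.2%, highest 58.8%), against 99.1% ± 2.92 (lowest 90.3%, median 100%, highest 100%). In each of the 3, all 11 animals had the same direction and the strands did not overlap.

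Runs that varied widely between animals were few. Of the 302 runs of at least 5 cytosines, 3 (0.993%) had an SD of the run mean above 10 points, against 3.97% of the 3376 such runs elsewhere. The typical run was no more stable, with a median SD of 2.62 points against 2.29. The run from 84861379 to 84861406, with 11 cytosines on both strands in 28 bp, had a mean of 33.6% ± 20.2 (SD, n = 11), with 5.32% in the lowest, 34.8% in the median and 71.0% in the highest animal. The run from 6195013 to 6195028, with 5 cytosines of the plus strand, had 38.9% ± 19.4, with 9.09%, 44.6% and 70.2%. The run from 135910663 to 135910764, with 5 cytosines of the minus strand, had 66.1% ± 12.1, with 45.0%, 65.5% and 84.0%.

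The first 2 of these runs, far apart on the chromosome, put the animals at the ends in the same way. Animals 2673, 2666 and 2634 were the lowest in both, at 5.32%, 6.83% and 8.09% in the first and 12.4%, 9.09% and 13.8% in the second. Animal 2595 was the highest in both, and the other 7 lay between, from 31.2% to 46.7% and from 34.7% to 51.2%. The third run had another order, with animal 2666 the highest.

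**Figure D5:**
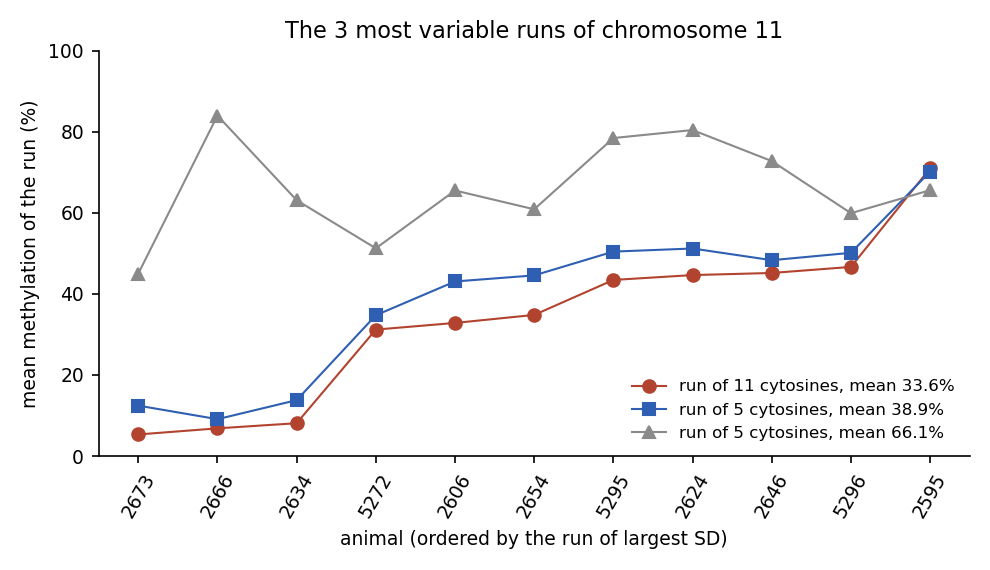
Mean methylation (%) of the 3 most variable runs of chromosome 11 in each of the 11 animals, ordered by the run of largest SD. In both runs of similar profile 3 animals lie below 14% and animal 2595 lies near 70%, whereas the run with a mean of 66.1% follows another order.

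The same division appeared at the most variable cytosine, which lay alone in its run. At 51568922, on the minus strand, the ratio was 46.3% ± 30.1 (SD, n = 11), with 2.27%, 47.7% and 94.4% in the lowest, median and highest animal. Animals 2634, 2673 and 2666 were again the lowest and animal 2595 the highest. At 117573182, on the plus strand, the ratio was 64.1% ± 29.7, from 0% in animal 2595 through 67.6% to 100% in animal 2634. At 32601804, on the plus strand, it was 46.4% ± 28.0, from 5.88% through 38.9% to 100%. The last 2 lay beside stable methylated neighbours, with 94.9% ± 4.40 at a distance of 4 bp and 97.3% ± 4.37 at a distance of 9 bp on the same strand. At both cytosines the animals differed at the single position and little at its nearest neighbour.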

How the data were processed

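Muscle DNA of 11 adult male Cynomolgus macaques was measured by RRBS. For library preparation the paper and the sample labels differ in the DNA amount, in the enzymes (MspI, or MspI followed by TaqαI) and in the bisulfite kit. The authors trimmed reads, aligned them with RRBSMAP to the genome of Yan et al., kept CpGs with 10 reads or more and estimated a methylation ratio per cytosine with methratio (versions not given in the sources used here). The deposited values are thus fractions from 0 to 1, with 0 missing. The columns carry animal numbers that the labels do not give, so they were used as 11 animals of 1 group, without a link to sample names. Coverage and read counts were not used here, and no test on counts was made.

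Ratios were analysed as deposited with Python 3.11.15, numpy 2.4.6, pandas 2.3.3, scipy 1.17.1 and matplotlib 3.10.9. Blocks of 1 Mb, runs (gap over 1000 bp), classes (bounds 0.3 and 0.7) and strand counts were described without a test. Spread and strand difference were compared between each of 19 chromosomes and the pool of its others by exact two-sided sign-flip tests over the animals (2048 sign changes), adjusted by Benjamini-Hochberg over 57 and 19 tests. The spread calculation was tested on simulated ratios whose levels were shuffled over the chromosomes, which removes the difference in level of chromosome 11. The rate of false calls was checked only with a constant spread or with the level held in steps. The sign-flip test, the runs and the spacing search were checked on small constructed cases. The strand difference was not simulated. A class does not by itself hold the level fixed, since low cytosines had a mean of 6.42% on chromosome 11 and 5.85% on the others. Values in steps of the level are therefore given beside the tests. Because each animal enters the means of the others, the animal values are partly dependent. Named were the 5 largest runs, the 5 highest and 5 lowest blocks of at least 20 cytosines, the blocks with the 5 largest plus and 3 largest minus excesses, the 3 most variable runs of at least 5 cytosines, the 3 most variable cytosines and the 3 CpGs with the largest strand difference. The chromosome, the comparisons and these lists were chosen with earlier results of these data known, and the recurrent spacing was found here. Alternatives were other class bounds, block sizes and gaps, leaving out ratios of 0 or 1, counting CpGs once, weighting runs equally, centring animals, steps of the level and leaving out each animal. Chosen after the data were seen were leaving out 4 animals, chromosome 20 or the clusters of the recurrent spacing (at least 3 or 4 of 5 positions matched), steps of the level for the strand difference, and the strand share within a class.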

Additional observations from a re-analysis of the deposited data

How the results depend on the processing

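The smaller spread of chromosome 11 at high cytosines and its larger strand difference kept their direction and an adjusted p below 0.05 under all 19 and 18 alternatives (exact sign-flip tests), with values from -1.65 to -0.629 and from 1.93 to 4.32 points, where -1.65 and 1.93 are those without ratios of exactly 0 or 1, and with 1 animal left out from -0.885 to -0.811 and from 3.59 to 3.77. At intermediate cytosines 18 of 19 did so, from -1.49 to -1.09 with 1 animal left out. The exception was -0.913 points (exact sign-flip test, adjusted p = 0.0954) without the 4 animals that stood apart. This difference was smaller than each with 1 animal left out, and the test also had fewer animals. The cause of the lost call was not tested. The spread at low cytosines depended on the setting. It turned to -0.190 points without cytosines holding a ratio of 0 or 1 and to -0.0710 with the level in steps of 0.05, was 0.156 (adjusted p = 0.119) without the 4 animals, and ranged from 0.109 to 0.193 with 1 animal left out, where the call was lost without 2646 (0.151), 5296 (0.143), 5272 (0.137), 2624 (0.109), 2634 (0.140), 2666 (0.144) or 2673 (0.152). The adjusted p of this result ranged from 0.00377 to 0.656 over its alternatives, and the cause was not tested. The mean of chromosome 11 was 57.2% without ratios of 0 or 1, 51.3% with each CpG counted once, 55.4% with runs weighted equally and 43.7% or 47.8% without clusters that matched at least 3 or 4 of the 5 positions of the recurrent spacing. Class bounds of 0.2 and 0.8 gave 36.4% low, 23.3% intermediate and 40.3% high cytosines, leaving out ratios of 0 or 1 gave 31.6%, 17.8% and 50.6%, and counting CpGs once gave 40.2% low and 46.4% high. Why the mean and the shares moved was not tested. The plus-strand share was 46.9% at low and 60.9% at high cytosines and 51.1% or 52.6% without the clusters of at least 3 or 4 matches. Plus-leaning blocks numbered 131 against 80 minus-leaning ones at 500 kb and 44 against 25 at 2 Mb, since block size sets how many there are. They made up 62.1% and 63.8% of the unequal blocks, against 65.9% at 1 Mb. Runs numbered 879 to 919 with the other gaps. With 1 animal left out the mean was 51.9% to 52.0%, and the low, intermediate and high shares were 39.3% to 39.5%, 13.5% to 13.8% and 46.8% to 47.0%. Other minimums than 10 reads could not be tried, since read counts were not used here.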
